A study of Rattus norvegicus with 12 samples.

Results

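The genes described here are a set of 42 genes of the cell cycle and DNA replication, chosen by Ensembl identifier from the 20263 genes of the deposited tables. All 42 were found, and all 42 passed the filter on low values. The definition of the set describes them as mitotic genes, among them MKI67, TOP2A, CCNB1, CDK1, BUB1, AURKA, PLK1, CENPF and KIF11, and S-phase genes, among them PCNA, RRM2, TYMS, E2F1, CCNE1, CDC6 and the MCM helicase genes. It lists the identifiers without saying which one belongs to which name, and the deposited tables do not pair identifiers with names either. Members are therefore given by identifier, with no name or role for any single one, and that the identifiers are cell cycle genes rests on the definition. The identifiers carry Ensembl's human prefix, whereas the samples are labelled as rat, and this conflict was not resolved.

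The cells were H9C2, which come from embryonic rat heart and which the labels call wild-type cardiomyocytes. Their mRNA, enriched with oligo(dT), was sequenced in 12 libraries, with 3 biological replicates in each of 4 groups, after 48 h of treatment. The control group (Ctrl) had 5.5 mM glucose and the high-glucose group (HG) had 100 mM, in both cases with no drug. The resveratrol group (HG-Res) had 100 mM glucose and 5 µM resveratrol, a plant polyphenol. The inhibitor group (HG-Res-SIRT7-Inh) had 100 mM glucose, 5 µM resveratrol and SirReal2 at 5 µM, which the labels give as an inhibitor of the deacylase SIRT7 and which is elsewhere known as an inhibitor of SIRT2. No group had an osmotic control for the glucose, and none had the inhibitor without resveratrol. Markers of heart muscle were not analysed here.

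A dividing cell passes from G1 into S phase, in which DNA is copied, and then into mitosis. G1 cyclins and their kinases free E2F transcription factors, which switch on genes for the MCM helicase, the PCNA clamp and nucleotide supply, and later CDK1 with its cyclins, the Aurora and Polo kinases and the kinesin motors carry the cell through mitosis. Heart muscle cells largely leave this cycle after birth, while H9C2 cells are kept as a dividing line. In RNA from a whole culture, fewer cycling cells and less RNA per cycling cell cannot be told apart.

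Levels are in CPM, reads of a gene per 1000000 reads of its library, which compare one gene between libraries and not one gene with another. The libraries held an estimated 30.29 to 33.17 M reads. The lowest single value of a member stood on about 130 reads. Over the 9 high-glucose libraries, a member's highest value was 1.16 to 4.32 times its lowest, with a median of 1.51 times, and 9 of the 42 members exceeded 2 times.

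A pair of libraries stood apart. Inhibitor replicate 3 held the highest of the 9 values in 24 of the 42 members and the lowest in 13, where the shares among all tested genes were 33.5% and 34.5%. High-glucose replicate 2 held the lowest value in 12 members and the highest in 4, where the shares among all tested genes were 25.1% and 16.2%. The median SD of a member between replicates, on the log2 scale, was 0.084 in the high-glucose group, 0.047 in the resveratrol group and 0.237 in the inhibitor group. For all tested genes these medians were 0.132, 0.071 and 0.242. Values that move by over 1.5 times or change their call without either library are given with and without it.

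In the inhibitor group ENSG00000110092 was the 1 member to pass the test, with a fall against each of the other high-glucose groups. No member passed the test between the resveratrol and high-glucose groups. The test was a limma fit over the 9 libraries and all 12854 genes that passed the filter, at a Benjamini-Hochberg adjusted p of 0.05. The 3 comparisons share their groups, so that a shift in 1 group enters more than 1 of them.

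**Figure D1:**
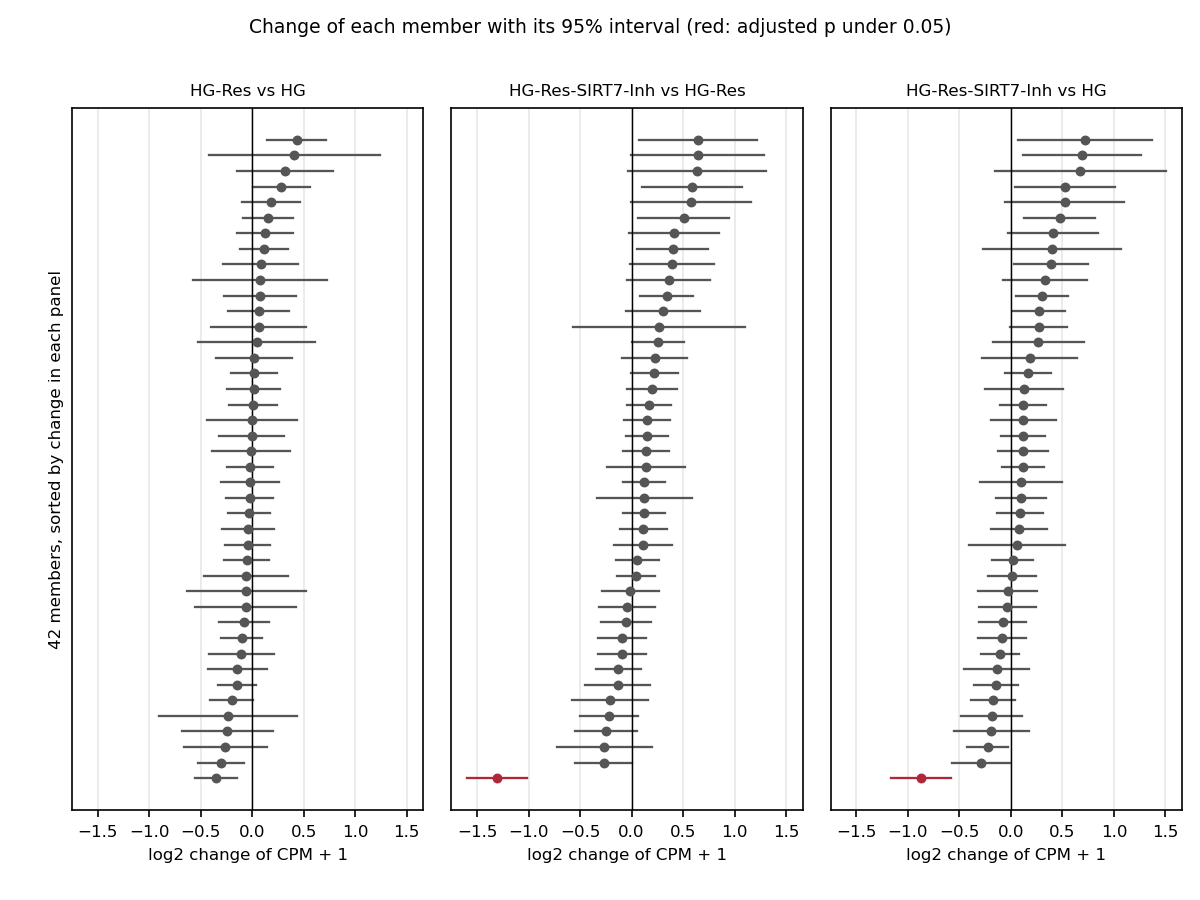
Each point is 1 of the 42 members, with the log2 change of CPM + 1 on the horizontal axis and its 95% interval from the limma fit as a line; each panel is 1 comparison, sorted by its own change, and red marks an adjusted p under 0.05. The red point is ENSG00000110092, at -1.30 against HG-Res and -0.87 against HG, and no point is red for HG-Res against HG.

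ENSG00000110092 was at 27.2, 25.4 and 26.8 CPM in the control libraries, and at 39.4, 37.9 and 42.8 CPM in the high-glucose libraries. It was at 55.5, 50.8 and 56.7 CPM with resveratrol, and at 23.8, 23.3 and 17.6 CPM with resveratrol and the inhibitor. The 4 groups did not overlap: resveratrol was highest, then high glucose, then control, then the inhibitor group. The difference between the inhibitor and control groups was not tested. Control values were at hand only because the authors' table of high glucose against control, limited to significant genes, lists this member.

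Against the resveratrol group, ENSG00000110092 fell from 54.3 ± 3.13 to 21.6 ± 3.47 CPM (SD, n = 3). The log2 change was -1.30 with an SE of 0.13 (limma adjusted p = 0.000446), and over 18 alternatives the adjusted p lay between 1.85e-05 and 0.005. Against the high-glucose group, at 40.0 ± 2.49 CPM, it fell by 0.87 on the log2 scale with an SE of 0.13 (limma adjusted p = 0.00315), and over 18 alternatives the adjusted p lay between 0.000259 and 0.0289. Among the 12854 tested genes these changes ranked 55 and 192 from the lowest. In the authors' deposited tables the log2 fold changes were -1.37 (q-value 1.00e-14) and -0.91 (q-value 2.49e-05).

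**Figure D2:**
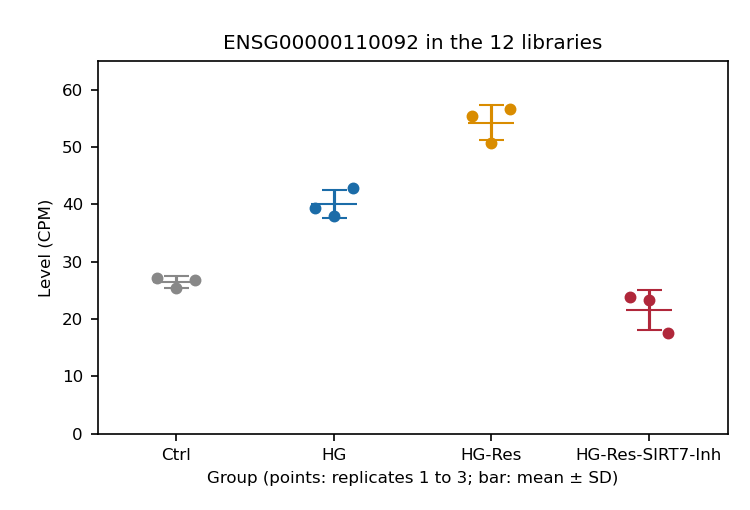
Level of ENSG00000110092 in CPM (vertical axis, from 0) in the 12 libraries, by group; points are replicates 1 to 3 and the bars give the mean and SD. The resveratrol libraries lie between 50.8 and 56.7 CPM, above all others, and the inhibitor libraries between 17.6 and 23.8 CPM, below all others.

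In the comparison of high glucose with control, the authors' deposited table lists 354 genes, where each of the other tables holds 20263. By its name it holds only significant genes. ENSG00000110092 was the 1 member listed, with a log2 fold change of 0.66 and a q-value of 2.66e-11. A gene was listed because it differed between these groups, so this q-value and their lack of overlap are not separate support. The other 41 members are not in that table and were not analysed in the control libraries.

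Resveratrol added to high glucose gave no called member in the limma fit, 0 of 42, where 0.708% of all tested genes were called. At an unadjusted p under 0.05, 2 members were higher and 2 lower, where 10.7% of all tested genes passed. By the q-value in the authors' deposited table, 2 members were higher and 3 lower, where 8.47% of all tested genes passed. That table also marks genes up or down, by a rule not stated in the sources at hand, and no member was marked. How many of all tested genes were so marked was not counted here. The median log2 change of the members was -0.01, against -0.00054 for all tested genes, and it turned to 0.0029 without high-glucose replicate 3 and to 0.005 with median-of-ratios scaling. Without high-glucose replicate 2 it was -0.044, against -0.034 for all tested genes. On average 18 of the 42 members were above 0, where the share among all tested genes was 49.9%. The resveratrol libraries lay above all high-glucose libraries in 7 members and below them in 6, where the shares among all tested genes were 15% and 14.8%.

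Among members without overlap, ENSG00000110092 had the highest mean change, 0.43 on the log2 scale (95% interval 0.14 to 0.72, limma adjusted p = 0.239). It passed without inhibitor replicate 3, a library outside this comparison that enters the shared estimate of spread (limma adjusted p = 0.0177), and with the 2 compared groups alone in the fit (limma adjusted p = 0.0318). The authors' deposited table gave a log2 fold change of 0.45 and a q-value of 0.000172. Over 18 alternatives the limma adjusted p ran from 0.00983 to 0.711.

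ENSG00000164104 was at 389, 342 and 393 CPM in the high-glucose group, at 296, 286 and 299 with resveratrol and at 306, 334 and 319 with the inhibitor as well. Every library with resveratrol, with or without the inhibitor, was below every high-glucose library. The log2 change with resveratrol was -0.35 (95% interval -0.55 to -0.15, limma adjusted p = 0.166), and with both compounds -0.23 (limma adjusted p = 0.140). The change with resveratrol passed without inhibitor replicate 3 (limma adjusted p = 0.0284) and with the 2 groups alone (limma adjusted p = 0.0388). Both changes passed without high-glucose replicate 2 and inhibitor replicate 3 together. They were then -0.41 with resveratrol (limma adjusted p = 0.00376) and -0.29 with both compounds (limma adjusted p = 0.00928). In the authors' deposited tables the q-value was 0.00363 with resveratrol and 0.347 with both compounds.

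ENSG00000076003 was at 182, 184 and 186 CPM in the high-glucose group, at 142, 150 and 156 with resveratrol and at 167, 160 and 196 in the inhibitor group. The resveratrol libraries were the lowest 3 of the 9. The log2 change against high glucose was -0.30 (95% interval -0.53 to -0.07, limma adjusted p = 0.300), and it passed without inhibitor replicate 3 (limma adjusted p = 0.0252) and with the 2 groups alone (limma adjusted p = 0.0383). The q-value in the authors' deposited table was 0.0146.

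ENSG00000167513 was at 86.1, 104 and 86.8 CPM in the high-glucose group, at 120, 117 and 108 with resveratrol and at 120, 112 and 64.9 in the inhibitor group. Resveratrol lay above high glucose without overlap, while inhibitor replicate 3 was the lowest of the 9. The log2 change with resveratrol was 0.32 (95% interval -0.14 to 0.78, limma adjusted p = 0.672). It passed without high-glucose replicate 2 and inhibitor replicate 3 together, at 0.41 (limma adjusted p = 0.00601). The authors' q-value for this change was 0.0565.

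The inhibitor added to resveratrol gave 1 called member, the fall of ENSG00000110092, where 6.07% of all tested genes were called. At an unadjusted p under 0.05, 6 members were higher and 1 lower, where 24.6% of all tested genes passed. By the q-value in the authors' deposited table, 0 were higher and 1 lower, where 8.69% of all tested genes passed. The authors' mark was up for ENSG00000131747, ENSG00000138160, ENSG00000169679, ENSG00000170312 and ENSG00000175305, at q-values of 0.0612 to 0.0984. It was down for ENSG00000110092. The share of all tested genes so marked was not counted here. The median log2 change of the members was 0.14, against 0.04 for all tested genes, and without inhibitor replicate 3 it was 0.11, against 0.05. On average 29 of the 42 were above 0, where the share among all tested genes was 55%. The inhibitor libraries lay above all resveratrol libraries in 13 members and below them in 3, where the shares among all tested genes were 17.7% and 16%.

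ENSG00000131747 was at 407, 288 and 451 CPM in the high-glucose group, at 414, 378 and 371 with resveratrol and at 430, 563 and 922 with the inhibitor. The inhibitor libraries lay above the resveratrol libraries, and their own spread was wide. The log2 change against resveratrol was 0.65 (95% interval 0.08 to 1.22, limma adjusted p = 0.161), and it passed without inhibitor replicate 1, at 0.90 (limma adjusted p = 0.0406). Without inhibitor replicate 3 it was 0.35 and did not pass (limma adjusted p = 0.301). The authors' q-value against resveratrol was 0.0612.

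ENSG00000169679 was at 135, 117 and 146 CPM in the high-glucose group, at 132, 125 and 123 with resveratrol and at 142, 170 and 284 with the inhibitor. The same order of libraries held within the inhibitor group, with replicate 3 far above the others. The log2 change against resveratrol was 0.59 (95% interval 0.10 to 1.07, limma adjusted p = 0.142). Without inhibitor replicate 3 it was 0.30 and did not pass (limma adjusted p = 0.144). It passed without inhibitor replicate 1, at 0.80 (limma adjusted p = 0.0372), and without high-glucose replicate 2 and inhibitor replicate 3 together, at 0.30 (limma adjusted p = 0.0380). The authors' q-value against resveratrol was 0.0849.

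ENSG00000166508 was at 446, 479 and 438 CPM in the high-glucose group, at 445, 453 and 445 with resveratrol and at 428, 394 and 302 with the inhibitor. The 3 inhibitor libraries were the lowest of the 9. The log2 change was -0.27 against resveratrol (limma adjusted p = 0.214) and -0.29 against high glucose (limma adjusted p = 0.165), and neither passed in any of 18 alternatives. Without inhibitor replicate 3 the changes were -0.12 (limma adjusted p = 0.290) and -0.14 (limma adjusted p = 0.157), and without high-glucose replicate 2 as well the change against high glucose was -0.11 (limma adjusted p = 0.226). The authors' q-values were 0.242 against resveratrol and 0.356 against high glucose.

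**Figure D3:**
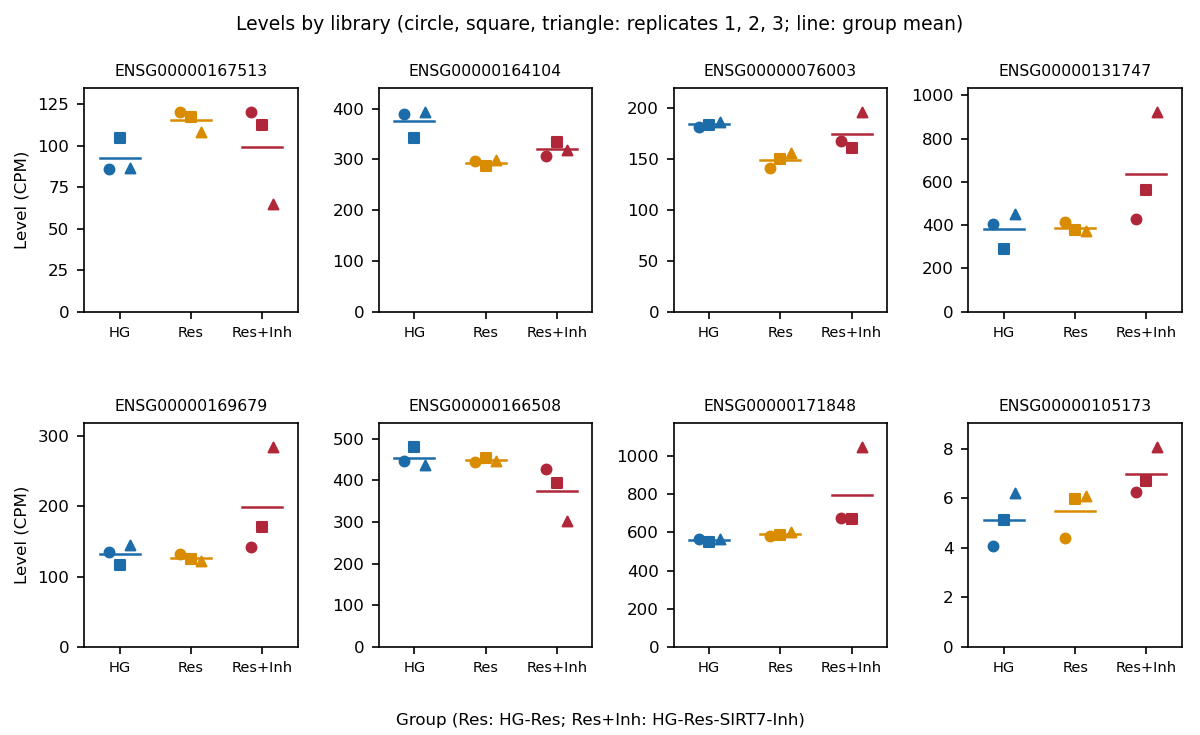
Levels in CPM (vertical axes, each from 0) of 8 members in the 9 high-glucose libraries; circles, squares and triangles are replicates 1, 2 and 3, and lines are group means. ENSG00000131747, ENSG00000169679 and ENSG00000171848 reach 922, 284 and 1047 CPM in inhibitor replicate 3, the highest of their 9 libraries, while ENSG00000167513 and ENSG00000166508 are lowest there, at 64.9 and 302 CPM.

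Both compounds together, set against high glucose alone, gave 1 called member, again the fall of ENSG00000110092, where 10.8% of all tested genes were called. At an unadjusted p under 0.05, 7 members were higher and 3 lower, where 27.9% of all tested genes passed. By the q-value in the authors' deposited table, 0 were higher and 1 lower, where 7.84% of all tested genes passed. The authors' mark was up for ENSG00000131747 (q-value 0.107) and ENSG00000138160 (q-value 0.124) and down for ENSG00000110092. The share of all tested genes so marked was not counted here. The median log2 change of the members was 0.12, against 0.04 for all tested genes. Without inhibitor replicate 3 it was 0.056, against 0.046 for all tested genes, and without high-glucose replicate 2 as well it was 0.031, against 0.011. On average 29 of the 42 were above 0, where the share among all tested genes was 54.6%. The inhibitor libraries lay above all high-glucose libraries in 5 members and below them in 6, where the shares among all tested genes were 12.8% and 15.3%.

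ENSG00000171848 was at 568, 550 and 566 CPM in the high-glucose group, at 583, 589 and 604 with resveratrol and at 675, 672 and 1047 with the inhibitor. The 3 groups did not overlap, and replicate 3 set most of the spread in the inhibitor group. The log2 change with both compounds was 0.47 (95% interval 0.13 to 0.82, limma adjusted p = 0.0810). It passed without inhibitor replicate 3, at 0.26 (limma adjusted p = 0.0101), and without inhibitor replicate 1, at 0.58 (limma adjusted p = 0.0412). The authors' q-value with both compounds was 0.162.

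ENSG00000105173 was the member with the fewest reads, at 4.09, 5.13 and 6.2 CPM in the high-glucose group, at 4.39, 5.98 and 6.08 with resveratrol and at 6.26, 6.68 and 8.06 with the inhibitor. The inhibitor libraries were the highest 3 of the 9, by a narrow margin over high-glucose replicate 3. The log2 change with both compounds was 0.39 (95% interval 0.03 to 0.75, limma adjusted p = 0.151), and it passed in none of 18 alternatives. The authors' q-value for this change was 0.313.

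For members that did not pass, the intervals set what the data could show. The 95% interval lay within 1.5-fold in either direction for 33 of the 42 members with resveratrol added, for 27 with the inhibitor added and for 29 with both compounds. It reached 2-fold or more for 1, 7 and 7 members, ENSG00000110092 included in the last 2 counts.

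The called counts moved when inhibitor replicate 1 or 3 was left out, and replicate 1 moved only the comparisons of the inhibitor group. Leaving out inhibitor replicate 2 alone or high-glucose replicate 2 alone left them at 0, 1 and 1. Without high-glucose replicate 2 the shares of all tested genes called were 0.42%, 7.02% and 5.56%. Without inhibitor replicate 3, resveratrol gave 2 called higher and 2 lower, where 6.23% of all tested genes were called. Both compounds then gave 4 higher and 1 lower, where 21.1% were called, and the inhibitor added to resveratrol still gave 1 lower, where 9.14% were called. With the 2 compared groups alone, resveratrol gave 1 higher and 2 lower, where 4.64% of all tested genes were called. Without inhibitor replicate 1, the inhibitor added to resveratrol gave 6 higher and 1 lower, where 13.8% of all tested genes were called, and both compounds gave 6 higher and 1 lower, where 16.9% were called. With high-glucose replicate 2 and inhibitor replicate 3 both left out, resveratrol gave 5 higher and 6 lower, where 21.2% of all tested genes were called. The inhibitor then gave 4 higher and 1 lower, where 18.8% were called, and both compounds 7 higher and 3 lower, where 31% were called.

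**Figure D4:**
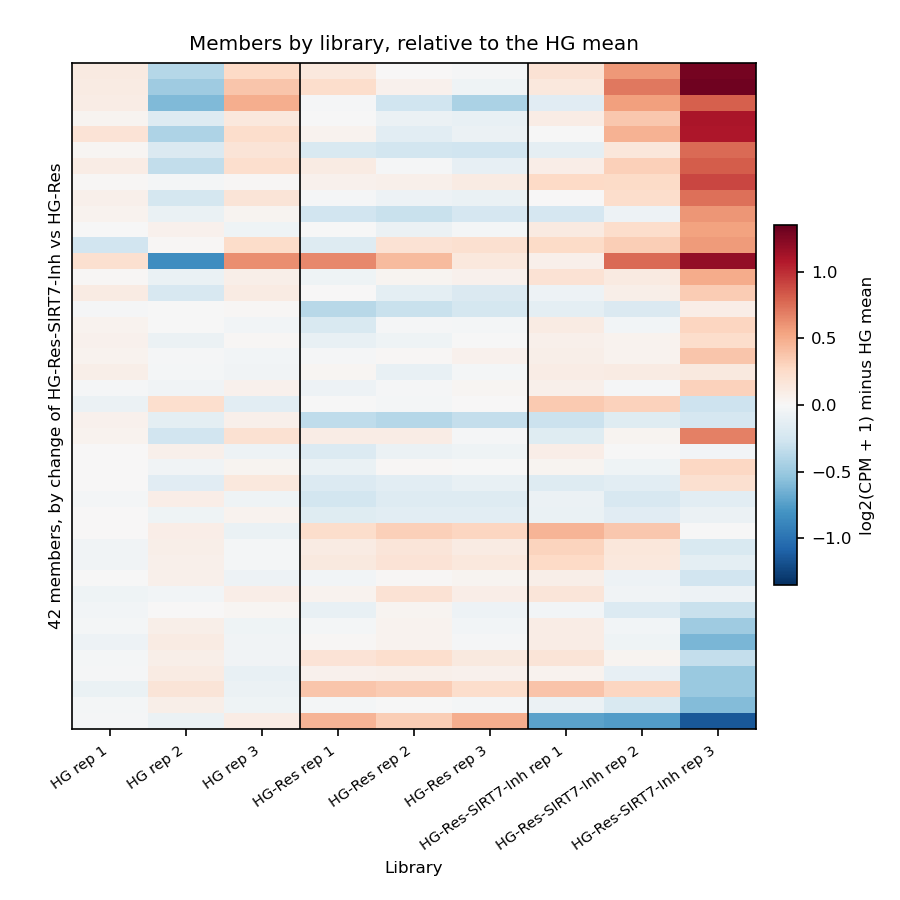
Colour gives log2(CPM + 1) minus the mean of the 3 HG libraries for the 42 members (rows, from the highest to the lowest change of HG-Res-SIRT7-Inh against HG-Res) in the 9 high-glucose libraries (columns). The strongest colours lie in inhibitor replicate 3, from -1.14 to 1.31, and the bottom row, ENSG00000110092, is above the HG mean in all 3 resveratrol libraries and below it in all 3 inhibitor libraries.

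The pair of libraries that stood apart departed from their groups in opposite directions. High-glucose replicate 2 was set against the mean of the other 2 libraries of its group, and inhibitor replicate 3 likewise. In 23 of the 42 members the first was lower and the second higher, and in 14 the first was higher and the second lower. Among all 12854 tested genes these counts were 5314 and 5473, so opposite directions were common to most genes. In 3 members both were lower and in 2 both were higher, where the counts among all tested genes were 1073 and 991. Across the members Pearson's r of these differences was -0.76 and Spearman's rho was -0.86, and across all 12854 tested genes they were -0.69 and -0.77. The points share the same 6 libraries with their depth and composition, genes are not independent replicates, and the values are a description. ENSG00000110092 was lower in both libraries, by -0.11 and -0.40. RNA quality, gene length and base composition were not measured here, and their part in these differences was not tested.

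**Figure D5:**
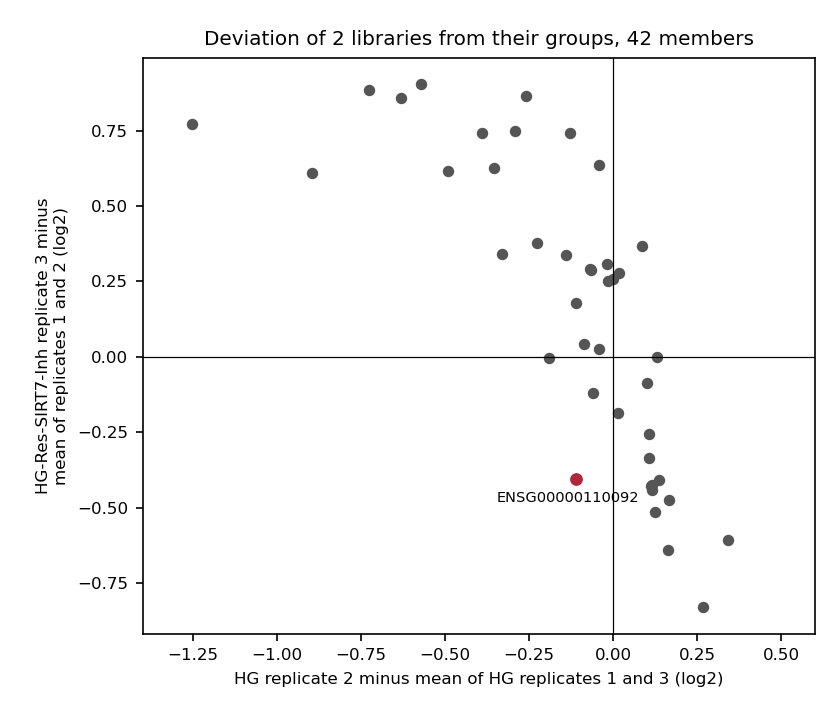
Each point is 1 of the 42 members; the horizontal axis gives HG replicate 2 minus the mean of HG replicates 1 and 3, and the vertical axis gives HG-Res-SIRT7-Inh replicate 3 minus the mean of replicates 1 and 2, both in log2(CPM + 1). Most points lie in the upper left (23) or the lower right (14), and ENSG00000110092, in red, is below 0 on both axes. Among all 12854 tested genes, not drawn, the counts in these directions were 5314 and 5473.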

How the data were processed

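RNA was sequenced in 12 libraries. The submitters' processing notes name Trimmomatic and build rn6; the aligner, counter, annotation and the authors' test were not stated in the sources at hand. Per the file headers, the authors' 4 deposited tables list a log2 fold change, a p-value, a q-value and values for each library. They also mark genes up or down. The table of high glucose against control holds, by its name, only significant genes. The deposited values are headed TPM but were treated as CPM: full columns sum to about 1000000, and low values are multiples of 1 step per library, which gave the depth. Exact whole reads were not recovered for enough genes, so no count model was used.

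Values were tested as log2(CPM + 1) with limma 3.58.1 (R 4.3.3, intensity trend) in 1 fit over the HG, HG-Res and inhibitor libraries. Genes needed 0.5 CPM or more in 3 or more of these 9, and p-values were adjusted over all 12854 genes. Changes on this scale are understated for low genes. P-values measure only the spread between the labelled replicates. The fit was tested on simulated data. Scaling, filter, pseudocount, prior variance, voom weights, the replicate block, the samples in the fit and leaving out libraries were varied.

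The members and lists were chosen with earlier results of these data known. The rule for named genes listed 15 members by symbol and took symbols only from a table or the files. As none pairs these identifiers with symbols, those 15 could not be picked out, and the pathway and marker lists, also by symbol, were not analysed here. Called members are printed. At most 2 members higher and 2 lower per comparison, those with the largest mean change and no overlap between replicates, were also chosen after their values were seen. No sequence is shown, since the sequence tables at hand are of rat genes.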

Additional observations from a re-analysis of the deposited data

How the results depend on the processing

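Shares in brackets are of all tested genes. With resveratrol added, the count of called members was 0 (0.708%). It was 4 without inhibitor replicate 3 (6.23%) and 11 without high-glucose replicate 2 and inhibitor replicate 3 together (21.2%). It was 3 with the 2 compared groups alone (4.64%) and 5 by the authors' q-value (8.47%). With the inhibitor added to resveratrol the count was 1 (6.07%), and 5 without that pair of libraries (18.8%). With both compounds against high glucose it was 1 (10.8%), and 10 without that pair (31%). Leaving out 1 library at a time gave 0 to 4, 1 to 7 and 1 to 7 members in the 3 comparisons. The count of 7 came without inhibitor replicate 1 in both cases (13.8% and 16.9%). Leaving out inhibitor replicate 3 gave 5 with both compounds (21.1%). The other alternatives gave 0, 1 and 1. The median change of the members with both compounds, 0.116, was 0.0563 without inhibitor replicate 3 and 0.0312 without the pair, and with resveratrol, at -0.0142, it changed sign to 0.0029 without high-glucose replicate 3 and 0.005 with median-of-ratios scaling.

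Whether the replicate numbers pair the libraries could not be settled. Correlations of deviations from the group mean ran from -0.547 to 0.636 for same-numbered libraries. For differently numbered libraries they ran from -0.724 to 0.777. Deviations within a group cancel, and 1 library that stands apart sets much of them, so such correlations cannot exclude pairing. With the replicate block the counts were 0, 1 and 1. Of 216 recomputed changes of printed members, 200 stayed on the same side of the threshold in the same direction, 16 newly passed it, 0 no longer passed and 0 reversed. Printed members were chosen for replicates that do not overlap, so leaving out libraries could not reverse their direction. Only the falls of ENSG00000110092 passed in the main fit, so only these could cease to pass. The tally is therefore a description and not a test of how firm the changes are.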
